A study of Mus musculus with 45 samples.

Results

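The response to retinoic acid (RA) of homozygous ΔG mouse embryonic stem cells (ESCs) was read from 6 RNA-seq libraries, 3 of cells kept in dimethyl sulfoxide, the solvent (ES samples), and 3 of cells given 2 µM RA (RA samples), both for 48 h. All genes whose values varied among the ΔG libraries were taken, 22048 of the 33924 genes listed, and the other 11876 were 0 in every library. The series holds 45 samples in all, of which 24 are RNA-seq libraries, 12 of them from ΔG cells and 12 from ΔPG cells. The cells were mouse D3 ESCs, grown without feeder cells on gelatin in medium with serum and leukemia inhibitory factor (LIF). In ΔG cells the gene body of the long noncoding RNA 5430416N02Rik was replaced by a cassette with a green fluorescent protein and a puromycin resistance gene, on 1 allele in heterozygous and on both alleles in homozygous cells, so that the ES and RA samples compared here share the same deletion and cassette. In ΔPG cells the promoter and the gene body were replaced, and by a different cassette (PGK-puro). Homozygous ΔPG cells are set beside the ΔG cells later. Each group of 3 holds biological replicates, and the labels do not name the clones sequenced, so that genotype and clone cannot be told apart.

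RA is the active form of vitamin A. It enters the nucleus, binds retinoic acid receptors (RARs) that sit on DNA as partners of retinoid X receptors (RXRs), and turns these receptors from repressors into activators of transcription. In the embryo it patterns the hindbrain and trunk through the Hox genes. In cultured ESCs it is widely used to end self-renewal and start differentiation, and among its fastest effects are those on the genes that bind, convert and degrade RA itself.

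Levels are regularized log (rlog) values, a log2 scale on which a difference of 1 is a doubling and on which genes with few reads are pulled towards their mean. They are not divided by gene length, so a level is compared only with the same gene in other samples. A difference is the mean of the 3 RA samples minus the mean of the 3 ES samples, given ± its standard error. A gene was called at an adjusted p under 0.1 and an absolute difference over 0.5, and "rose" and "fell" are used only for called genes. In bulk samples such as these, fewer cells of a type and less RNA per cell cannot be told apart. The values carry no read counts, so the depth of each library is unknown.

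The deleted gene followed the genotype labels. 5430416N02Rik, on chromosome 5 from 100849861 to 100858535 on the minus strand of NCBIM37, had rlog values of 2.63, 2.77 and 2.85 in the homozygous ES samples and 2.63, 3.08 and 2.77 in the homozygous RA samples. The heterozygous samples lay at 5.50 to 5.58 in ES and 5.52 to 5.64 in RA, above every homozygous sample. Between genotypes, the exact permutation test of 3 against 3 gave p = 0.10 in ES and in RA, the smallest two-sided p this design allows. RA did not shift the gene detectably in homozygous cells (difference 0.08 ± 0.15, adjusted p = 0.73). Replicates of the homozygous samples correlated with each other at r = 0.994 to 0.996 over the 11984 genes with a mean of at least 3, and ES with RA samples at r = 0.872 to 0.880. Over the same genes the first principal component held 95.4% of the variance of the 6 libraries and separated ES from RA.

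RA treatment changed the levels of 29.2% of the genes tested. In homozygous ΔG cells 3759 genes rose (17% of those tested) and 2675 fell (12.1%). In 6426 of these 6434 genes the ES and RA samples did not overlap, whereas 52.6% of all genes tested had no overlap. Large rises outnumbered large falls: 1750 genes rose (7.94%) and 839 fell (3.81%) by more than 1, 519 rose and 215 fell by more than 2, and 61 rose and 18 fell by more than 4. Over all genes the median difference was 0.016. Rises made up 58.4% of the calls, and 47.1% after quantile normalization of the samples, so which direction holds more genes depends on the scaling. Across genes with a mean of at least 3, the difference correlated weakly with the GC content of the transcript (r = 0.13), with medians of -0.18 in the lowest and 0.25 in the highest 10% of GC content, and these genes gave 3082 rises and 2477 falls, against 2857 and 2508 over the 11564 of known GC content once the trend with it was removed.

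Falls were more frequent the higher genes started, whereas rises were most frequent at ES levels from 3 to 6. Of the 1281 genes with an ES level of 9 or more, 43.5% fell and 4.22% rose. Of the 5762 genes with an ES level from 6 to 9, 23.6% fell and 15.3% rose. Of the 4599 genes with an ES level from 3 to 6, 38.3% rose and 13.2% fell. The ES level enters both the sorting and the difference, so a pattern of this kind is partly built in. Of the 10406 genes with an ES level under 3, 10.2% rose and 1.42% fell.

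**Figure D1:**
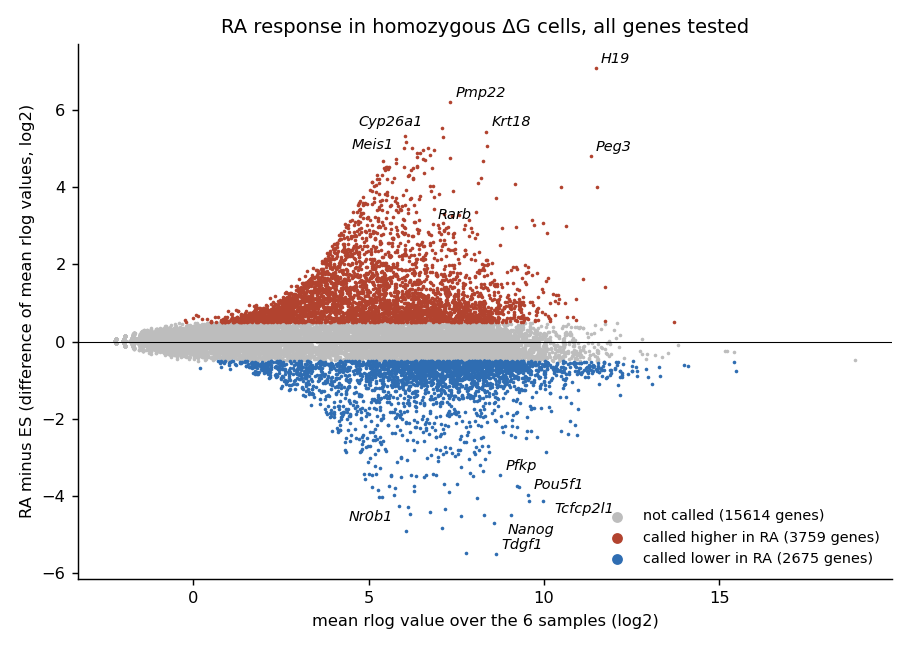
Each point is 1 of the 22048 genes tested, with its mean rlog value over the 6 homozygous ΔG samples on the horizontal axis and its RA minus ES difference (log2) on the vertical axis. The 3759 genes called higher in RA (red) reach 7.08 for H19, the 2675 called lower (blue) reach -5.51 for Tdgf1, and the points narrow towards low means.

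Most genes of the retinoid pathway rose. Of 28 genes of retinoid receptors, binding proteins and metabolism, 18 rose and 1 fell, with a median difference of 0.91. For this and every list below, the shares over all genes tested were 17% for rises and 12.1% for falls. Cyp26a1, whose enzyme degrades RA, had rlog values of 4.45, 4.16 and 4.31 in ES and 9.89, 9.79 and 9.87 in RA. Another enzyme of its family, Cyp26b1, had 3.12, 3.38 and 3.63 in ES and 8.71, 8.63 and 8.75 in RA. For both, every RA sample lay more than 4 above every ES sample, and the differences were 5.54 ± 0.09 (adjusted p = 1.28e-18) and 5.32 ± 0.12 (adjusted p = 1.53e-16). The remaining family member, Cyp26c1, was not called (difference -0.03).

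Carriers of retinoids also rose. Crabp2, which delivers RA to its receptor in the nucleus, rose from 4.13, 4.25 and 4.33 to 8.91, 9.01 and 8.94. Stra6, the membrane receptor through which cells take up retinol, rose from 3.44, 3.30 and 3.66 to 8.14, 7.96 and 8.13. These differences were 4.71 ± 0.09 and 4.61 ± 0.11. Crabp1, the paralog of Crabp2, rose by 1.32 ± 0.14 and Fabp5, another RA carrier, by 2.06. Dhrs3, which reduces retinaldehyde back to retinol, rose by 2.82 ± 0.08. In contrast, the RA-producing enzymes Aldh1a1, Aldh1a2 and Aldh1a3 gave differences of 0.40, 0.06 and -0.18 and were not called.

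The receptors diverged. Rarb, the receptor gene best known as a direct target of RA, rose from 5.42, 5.37 and 5.12 to 8.32, 8.34 and 8.36 (difference 3.04 ± 0.09, adjusted p = 9.46e-15). Rxra rose by 2.28 ± 0.10 and Rara by 0.95 ± 0.10, whereas Rarg fell from 8.02, 7.96 and 8.05 to 6.44, 6.29 and 6.64 (difference -1.56 ± 0.09, adjusted p = 7.86e-11). Rarg was the only member of the list to fall. Rxrb rose by 0.77 and no longer passed the limit once a trend with GC content was removed (0.46). The corepressor gene Nrip1, itself an RA target, rose by 2.72 ± 0.08, and Stra8, the RA-induced gene that germ cells need to enter meiosis, by 1.86 ± 0.06.

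**Figure D2:**
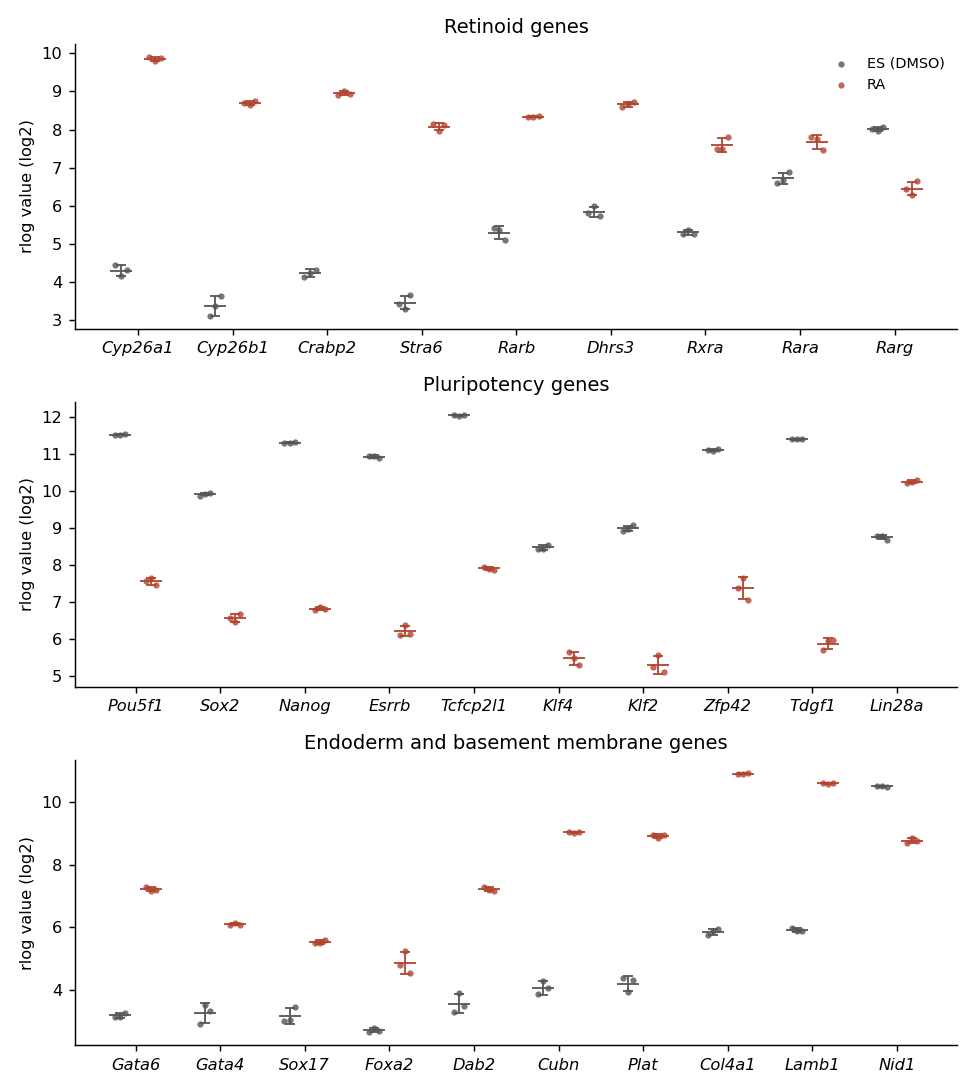
Points are the rlog values (log2) of the 3 ES and 3 RA samples of homozygous ΔG cells, with the mean (bar) and SD, for genes of retinoid metabolism and reception, of pluripotency, and of endoderm and basement membrane. The groups overlap for none of the genes shown, and Rarg, Lin28a and Nid1 each move against most of their panel.

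RARs bind pairs of a short half-site in direct repeat, and a spacing of 5 bases (DR5) is their best known target. The promoters of Rarb and Cyp26a1 hold such a pair close to the start of the gene. The 250 bases before each start are shown 5′ to 3′ on the gene's strand, from the RefSeq sequence of GRCm38.p6, with the pair and its spacer in capitals. The Rarb window is chr14:16575477-16575726 (minus strand) and the Cyp26a1 window chr19:37697558-37697807 (plus strand).
Rarb: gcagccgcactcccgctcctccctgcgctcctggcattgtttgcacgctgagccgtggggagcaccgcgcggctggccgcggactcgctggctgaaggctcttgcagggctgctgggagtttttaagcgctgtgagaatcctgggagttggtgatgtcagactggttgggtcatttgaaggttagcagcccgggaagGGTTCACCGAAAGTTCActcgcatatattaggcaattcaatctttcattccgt
Cyp26a1: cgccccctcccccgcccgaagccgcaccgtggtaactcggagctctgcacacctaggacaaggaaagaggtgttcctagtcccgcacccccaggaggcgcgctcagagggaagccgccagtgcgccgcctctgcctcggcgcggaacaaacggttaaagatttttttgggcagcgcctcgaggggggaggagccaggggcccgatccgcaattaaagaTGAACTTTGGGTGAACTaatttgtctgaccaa
The pair lies 53 to 37 bases before the start of Rarb and 32 to 16 bases before the start of Cyp26a1, where it reads on the opposite strand.

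The search took the half-site AGGTCA or a variant of it, which was AGTTCA in the first, GGGTCA in the second and GGTTCA in the third form, with any 2 of these in the same direction 5 bases apart, on both strands, in windows from 250 bases before to 50 bases after a start. Such a pair occurred in 32 of 32851 windows (0.0974%). In the retinoid list it occurred in 2 of 36 windows, those of Rarb and Cyp26a1, and in 0 of 24 windows of Hox genes. Only 8 of the genes tested here had the pair in their window, of which 3 rose (Cyp26a1, Rarb and Ppbp), 1 fell (Blvrb, difference -0.96) and 4 were not called. Of all 12873 genes tested that had a window, 2626 rose. The pair lay in 0.085% of the windows of genes that rose and 0.0446% of those of genes that fell, against 0.0493% for all genes tested. Ppbp was near the detection limit, at 1.28 to 1.33 in ES and 2.18, 1.39 and 2.17 in RA, and its call was lost without RA replicate 1 (0.47) or RA replicate 3 (0.48). A match is a description of the letters in these windows and not a measured binding site.

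The Hox genes, which give cells their position along the body axis, rose mostly in paralog groups 1 to 9. Of the 39 Hox genes, 24 rose and 2 fell, with a median difference of 0.72. Paralog groups 1 to 5 held 13 rises in 15 genes (median 1.30), and groups 6 to 9 held 10 in 12 (median 0.81). In groups 10 to 13 only Hoxb13 of 12 genes rose (median 0.13). Several of these 12 were very low in both groups, where rlog differences are understated. Means lay from -1.79 to -0.22 for Hoxa11, Hoxd10, Hoxd11 and Hoxd12, and from 0.51 to 0.97 for Hoxa13 and Hoxc11. Hoxa10 and Hoxd13, at 2.93 and 3.06 in ES, were not called either. Hoxb2 rose from 2.90, 3.13 and 3.37 to 7.41, 7.27 and 7.33, and Hoxb1 from 2.83, 3.14 and 2.98 to 6.27, 6.38 and 6.39. Their differences of 4.20 ± 0.13 and 3.36 ± 0.13 were the largest of the 39, ahead of Hoxa5 (3.21 ± 0.13) and Hoxb9 (3.01 ± 0.14).

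The 4 clusters did not move equally. All 10 Hoxb genes rose (median 2.36), against 6 of 11 Hoxa genes (median 0.72), 5 of 9 Hoxc genes (median 0.60) and 3 of 9 Hoxd genes (median 0.35). The very low genes named above are part of the Hoxa, Hoxc and Hoxd counts and of none for Hoxb. Hoxb13, the most posterior gene of its cluster, rose from 4.23, 4.92 and 4.52 to 6.68, 6.42 and 6.47. At the posterior end of the Hoxc cluster, Hoxc12 fell from 3.27, 3.18 and 3.10 to 2.10, 2.17 and 2.05 (difference -1.07 ± 0.13), and Hoxc13 fell by 0.68 ± 0.14. Neighbouring Hox genes lie in 1 chromatin domain and are not independent of each other.

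**Figure D3:**
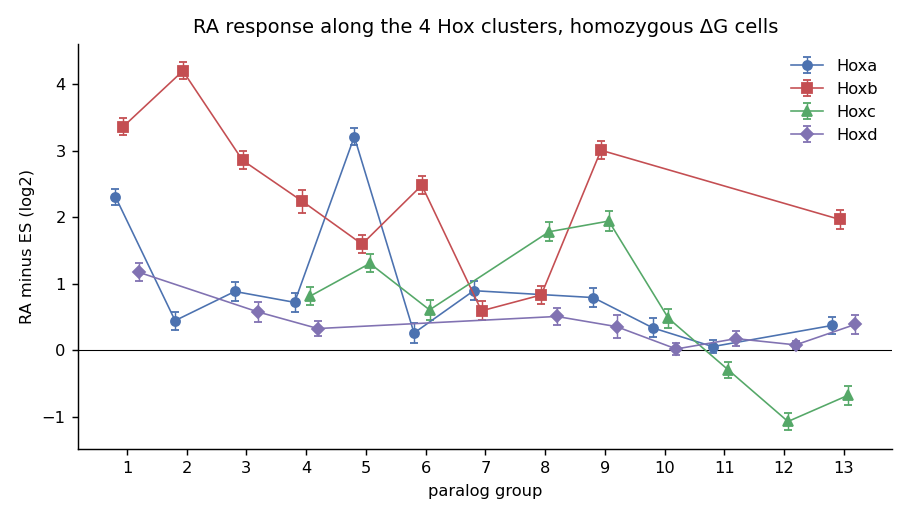
The RA minus ES difference (log2, with its standard error) of the 39 Hox genes of homozygous ΔG cells is plotted by paralog group for the clusters Hoxa, Hoxb, Hoxc and Hoxd. Differences peak at 4.20 for Hoxb2, Hoxb genes lie above 0.5 throughout, and Hoxc12 and Hoxc13 lie below -0.5.

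Regulators and cofactors of Hox genes moved in part. Meis1, a cofactor that binds DNA together with Pbx and Hox proteins, rose from 3.92, 4.00 and 3.88 to 8.85, 8.85 and 8.74 (difference 4.88 ± 0.09). Of the 11 Hox regulators and cofactors 6 rose and 1 fell, with a median of 0.98. The member that fell was Cdx1, a caudal-type activator of Hox genes, from 8.53, 8.57 and 8.65 to 5.35, 5.74 and 5.97. Its relative Cdx2 gave a difference of 0.12 and was not called.

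The pluripotency network was the list with the most falls. Of 28 core and naive pluripotency genes 25 fell and 1 rose, and the median difference was -3.37. Pou5f1, the core factor known as Oct4, fell from 11.52, 11.52 and 11.53 to 7.58, 7.64 and 7.47, and Nanog from 11.30, 11.29 and 11.32 to 6.80, 6.87 and 6.81. These differences were -3.96 ± 0.05 (adjusted p = 3.65e-20) and -4.48 ± 0.05 (adjusted p = 8.23e-21), and no RA sample came within 3 of an ES sample. Sox2 fell by 3.34 ± 0.07. All of these markers of the labelled cell type were high in every ES sample.

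Several transcription factors of the naive state also fell by more than 2. Esrrb, an orphan nuclear receptor that holds naive cells, fell from 10.93, 10.96 and 10.88 to 6.12, 6.38 and 6.15. Tcfcp2l1, a target of LIF signalling, fell from 12.04, 12.03 and 12.05 to 7.96, 7.90 and 7.88. Klf2 fell by 3.68 ± 0.10, Klf4 by 2.99 ± 0.09 and Zfp42, also known as Rex1, by 3.74 ± 0.09. The deepest fall of all genes tested was that of Tdgf1, the Nodal co-receptor Cripto, from 11.41, 11.39 and 11.39 to 5.72, 5.96 and 5.97 (difference -5.51 ± 0.07). Tdh, whose threonine dehydrogenase mouse ESCs depend on, followed at -5.47 ± 0.08.

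A few members of the list stood apart. Lin28a, which blocks the maturation of let-7 microRNAs, rose from 8.78, 8.79 and 8.69 to 10.21, 10.26 and 10.29 (difference 1.5 ± 0.05). Dppa3 (-0.39) and Sall4 (0.01) were not called. Stat3, Tbx3, Dppa4, Utf1 and Dppa2 fell by 0.59 to 0.72, and Utf1 lost its call without RA replicate 1 (-0.49).

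Genes of the formative and primed states split. Of 19 such genes 7 rose and 8 fell, with a median of 0.22 that became -0.79 over the members with a mean of at least 3. Sox4 rose by 4.10 ± 0.09 and Cdh2, the N-cadherin gene, by 3.93 ± 0.13, whereas Foxd3 fell by 2.42 ± 0.12 and Otx2, an anterior and epiblast factor that RA is known to repress, by 0.87 ± 0.15. Fgf5, the marker of the primed epiblast, rose by 0.81 ± 0.14.

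Endoderm genes were among those with the largest rises. Of 25 genes of extraembryonic and definitive endoderm 17 rose and 1 fell, and the median difference was 2.15. Gata6, the factor that starts the primitive endoderm program, rose from 3.13, 3.14 and 3.26 to 7.30, 7.17 and 7.18 (difference 4.04 ± 0.11). Gata4 rose by 2.85 ± 0.15, Sox17 by 2.37 ± 0.14 and Foxa2 by 2.15 ± 0.16. Cubn, an endocytic receptor of the visceral endoderm, rose from 3.85, 4.29 and 4.06 to 9.04, 9.01 and 9.05, and its partner Lrp2 from 6.08, 5.89 and 6.28 to 10.32, 10.32 and 10.31. Plat, the tissue plasminogen activator long used as a readout of RA-treated endoderm cultures, rose by 4.72 ± 0.11. Not all of the program moved: Apoe fell by 2.39 ± 0.03, Apoa1 gave a difference of 0.15, and Hnf4a, at 3.11 to 3.30 in ES and 2.64 to 2.93 in RA, did not pass the size limit (-0.39 ± 0.14).

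Basement membrane genes were split between chains. Of 21 genes 9 rose and 1 fell, with a median of 0.32. The type IV collagen genes Col4a1 and Col4a2, which share 1 promoter, rose by 5.07 ± 0.06 and 4.76 ± 0.10, and Lamb1, the laminin beta chain of the early embryo, rose from 5.98, 5.88 and 5.89 to 10.61, 10.57 and 10.63. Lama1 rose by 1.99 ± 0.05. Lamc1, which was high already (10.41 to 10.43 in ES), gave 0.42 ± 0.03 and missed the size limit, and the linker gene Nid1 fell by 1.74 ± 0.05.

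Most keratin and adhesion genes rose. Of 17 genes of epithelial state 13 rose and none fell, with a median of 1.38. Krt18 rose from 5.60, 5.58 and 5.69 to 11.05, 11.07 and 11.06, and its partner Krt8 from 7.37, 7.04 and 6.98 to 11.23, 11.19 and 11.24. Krt19 rose by 4.28 ± 0.11 and the tight junction gene Cldn6 by 4.14 ± 0.12. Cdh1, the E-cadherin gene, gave -0.28 ± 0.03, too small for a call, while Vim rose by 0.99 ± 0.04. Of 10 trophoblast genes 6 rose and 2 fell (median 1.32), with Gata3 up by 2.67 ± 0.13 and Tcfap2c down by 1.26 ± 0.13, while Ascl2 (-0.20) was not called.

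Marker lists of cell types that the cultures were not meant to hold also moved with RA. Of 14 fibroblast markers 10 rose and none fell (median 1.73), led by Col1a2 (4.20 ± 0.11) and Col3a1 (4.14 ± 0.12), and the mean level over the list went from 2.72 to 2.80 in ES to 4.49 to 4.61 in RA. Thy1, Lum and Postn, which also mark fibroblasts, gave differences of -0.03, 0.39 and 0.47 and were not called, though Postn passed without RA replicate 1 (0.56) or RA replicate 2 (0.58). Of 10 muscle markers 8 rose (median 1.11), led by Acta2 (4.51 ± 0.11), with the mean level at 2.00 to 2.02 in ES and 3.36 to 3.43 in RA. Myod1 was not called (0.01) and Myf5 was listed at 0 in every sample. Of 9 endothelial markers 7 rose (median 1.30), led by Flt1 (3.90 ± 0.14), with the mean level at 3.19 to 3.26 in ES and 4.21 to 4.29 in RA, whereas Pecam1, which ESCs express, fell by 2.88 ± 0.08. Of 10 blood markers 1 rose and 1 fell (10% each, against 17% and 12.1% of all genes tested), with a median of -0.048. Their mean level stayed at 0.50 to 0.59 in ES and 0.48 to 0.60 in RA, and Ptprc and Hba-x were listed at 0 in every sample. Several of these genes, such as collagens and Acta2, are also used by early endoderm and mesenchyme, and the part of other cell types in the results was not tested.

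Neural genes moved in part. Of 29 neural genes 11 rose and 2 fell, and the median difference was 0.13. Irx3, a homeobox gene of the neural tube, rose from 2.82, 2.88 and 3.12 to 6.55, 6.41 and 6.81, and Pax6, which marks neural progenitors, rose from 3.16, 3.02 and 3.45 to 5.52, 5.50 and 5.55. Sox11 rose by 2.79 ± 0.13 and Nes, the progenitor filament gene, by 2.00 ± 0.07. Tubb3, a neuronal tubulin, fell by 0.96 ± 0.08 and Stmn2 by 3.49 ± 0.10.

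Primitive streak genes went both ways. Of 22 streak and mesoderm genes 6 rose (27.3%, against 17% of all genes tested) and 5 fell (22.7%, against 12.1%), with a median of 0.14. T, the streak factor Brachyury, fell from 2.93, 2.79 and 2.62 to 2.09, 2.05 and 2.06. All 6 values of T lay under 3, the limit used here for low values. Eomes (-0.22) and Mixl1 (0.25) were not called. Meox1, a homeobox gene of the somites, rose from 3.19, 3.22 and 3.35 to 7.73, 7.62 and 7.72 (difference 4.43 ± 0.11), and Kdr by 2.14 ± 0.14.

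Signalling genes showed mixed changes. Of 19 genes of fibroblast growth factor (FGF) signalling and its feedback 10 rose and 5 fell (median 0.81). Fgf4, the main FGF of ESCs, fell from 9.84, 9.93 and 9.92 to 5.44, 5.52 and 5.19, and the receptor gene Fgfr2 rose from 4.12, 3.78 and 4.10 to 8.84, 8.71 and 8.80. The ERK feedback genes went both ways, with Dusp6 up by 2.84 ± 0.06 and Spry1 up by 1.45 ± 0.12, but Spry2 down by 1.79 ± 0.14 and the ERK target Etv5 down by 2.41 ± 0.05. Of 18 genes of BMP and Nodal signalling 7 rose and 8 fell, with a median of 0.19 that became -0.53 over members with a mean of at least 3. The BMP targets Id1, Id2 and Id3 rose by 2.37 ± 0.09, 3.80 ± 0.11 and 3.16 ± 0.07, while Nodal fell by 1.07 ± 0.08 and its antagonist and target Lefty2 by 1.46 ± 0.05. Of 15 Wnt targets and antagonists 4 rose and 6 fell (median 0.23, and -1.09 over members with a mean of at least 3), with the targets Axin2 and Sp5 down by 1.11 ± 0.11 and 1.87 ± 0.14.

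Chromatin regulators changed member by member. Of 10 genes of DNA methylation 2 rose (20%, against 17% of all genes tested) and 4 fell (40%, against 12.1%). The median of 0.038 changed sign with the scaling. The dioxygenase genes Tet1 and Tet2 fell by 2.20 ± 0.05 and 2.31 ± 0.04, whereas Tet3 rose from 4.74, 4.64 and 4.95 to 6.47, 6.56 and 6.36 and the de novo methyltransferase gene Dnmt3a rose by 1.30 ± 0.05. Of 18 Polycomb genes 6 rose and 4 fell (median -0.084). Eed and Suz12, core subunits of Polycomb repressive complex 2, fell by 1.77 ± 0.06 and 1.26 ± 0.05, and its methyltransferase gene Ezh2 gave -0.20 ± 0.07 and was not called. Cbx2 and Phc2, of Polycomb repressive complex 1, rose by 1.55 ± 0.09 and 1.97 ± 0.08.

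More S-phase genes fell than rose. Of 43 S-phase genes 23 fell and 1 rose, with a median of -0.53. Ung fell by 1.14 ± 0.07, Uhrf1 by 1.08 ± 0.03 and the replicative helicase gene Mcm5 from 11.72, 11.71 and 11.70 to 10.78, 10.77 and 10.81. Of 54 G2/M genes 7 fell and 5 rose (median -0.23), and 42 were not called. Of 23 cyclin and CDK inhibitor genes 6 rose and 5 fell (median -0.23). Ccnd2, the D-type cyclin gene, rose from 2.99, 3.22 and 3.08 to 6.81, 6.59 and 6.64, while Ccnd1 fell by 1.41 ± 0.11. Among the inhibitors, Cdkn1a (p21) fell by 2.83 ± 0.14 and Cdkn1c (p57) rose by 2.09 ± 0.13.

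Growth and survival genes moved in part. Of 16 genes of Trp53 and its targets 5 rose and 4 fell (median 0.14), and Trp53 itself gave 0.10. Plk2, a kinase among these targets, rose by 3.71. Of 13 genes of the BCL2 family 6 rose (46.2%, against 17% of all genes tested) and 2 fell (15.4%, against 12.1%), with a median of 0.49. The proapoptotic genes Bmf and Bcl2l11 rose by 2.79 ± 0.09 and 2.21 ± 0.12, and Bid fell by 1.32 ± 0.10. Of 12 genes of the Myc network 4 rose (33.3%, against 17% of all genes tested) and 2 fell (16.7%, against 12.1%), with a median of 0.34. Myc rose by 0.81 ± 0.13 and Mxd4, which competes with Myc for Max, by 3.42 ± 0.13.

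Most glycolysis genes fell. Of 19 genes of glycolysis and glucose uptake 15 fell and 1 rose, with a median of -0.77. Pfkp, a phosphofructokinase gene, fell from 10.50, 10.48 and 10.48 to 6.95, 7.11 and 7.02 (difference -3.46 ± 0.06), Aldoa by 1.37 ± 0.02 and Hk2 by 1.34 ± 0.06. The member that rose was Slc2a1, a glucose transporter gene (0.53 ± 0.04), and its rise dropped under the size limit with median centring. Of 15 genes of the integrated stress response 9 fell and 1 rose (median -0.59). Atf4, the transcription factor of that response, fell by 1.58 ± 0.05, and its targets Asns and Psat1, which make amino acids, fell by 2.31 ± 0.03 and 1.72 ± 0.04.

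Imprinted genes held the largest rise of all. H19, a maternally expressed noncoding RNA on chromosome 7 (149761434 to 149764048, minus strand, NCBIM37), rose from 7.93, 7.94 and 7.94 to 14.99, 15.02 and 15.03 (difference 7.08 ± 0.02, adjusted p = 6.13e-29). Of 22 imprinted genes 13 rose and 3 fell, and the median was 1.5. Peg3 rose from 9.03, 8.89 and 8.89 to 13.74, 13.73 and 13.73, and Mest, Peg10 and Dlk1 by 4.01 ± 0.03, 4.00 ± 0.02 and 4.10 ± 0.11. Igf2, the growth factor gene beside H19, rose by 2.88 ± 0.12, while its clearance receptor Igf2r fell by 1.14 ± 0.07. The values do not separate the parental alleles.

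Among genes of the 2-cell-like state and of the germline, rises outnumbered falls. Of 14 genes of the 2-cell-like state 10 rose and 1 fell (median 1.76). Zscan4d rose from 4.12, 4.23 and 4.23 to 7.73, 7.68 and 7.70 and Zscan4c from 4.13, 4.29 and 4.23 to 6.98, 7.12 and 6.95. The Zscan4 genes are near-identical copies, so reads could be split among them and their values are uncertain. Dux, which drives that state, gave 0.40 and was not called. Of 16 germline and meiosis genes 9 rose and 3 fell (median 0.74), with the meiotic cohesin gene Rec8 up by 2.61 ± 0.10 and the germ cell helicase gene Ddx4 up by 2.38 ± 0.10, but Dazl down by 1.12 ± 0.09.

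**Figure D4:**
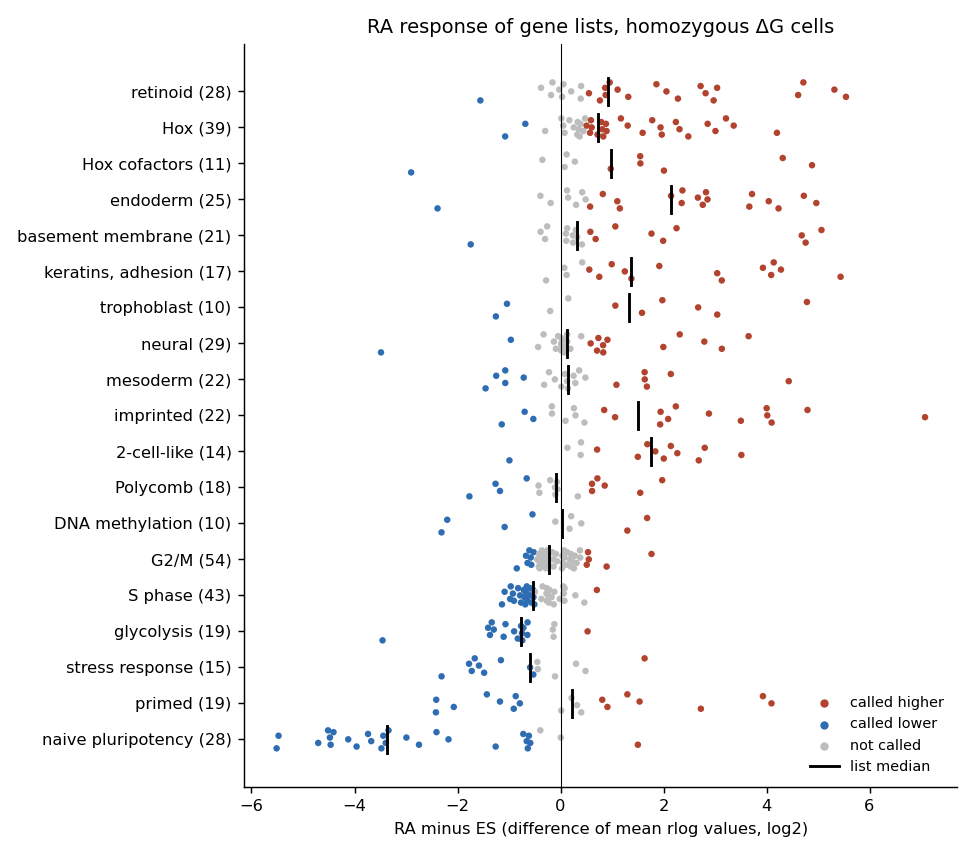
Each point is a gene of the list named at the left (number of genes tested in brackets), at its RA minus ES difference (log2) in homozygous ΔG cells, coloured by its call, and black bars are list medians. Medians run from -3.37 for naive pluripotency to 2.15 for endoderm, against 0.016 for all genes, and most lists hold genes on both sides of 0.

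Among the 12 largest rises, those not yet described were of varied function. Pmp22, a myelin protein gene also used outside nerves, rose from 4.30, 4.09 and 4.32 to 10.37, 10.47 and 10.44, second only to H19. Gas1, a Hedgehog co-receptor gene, rose by 5.30 ± 0.08, the matrix genes Thsd4 and Pxdn by 5.18 ± 0.11 and 4.97 ± 0.12, the cytochrome P450 gene Cyp1b1 by 5.03 ± 0.10, the smooth muscle gene Tagln by 5.02 ± 0.09 and the chaperone gene Clu by 5.01 ± 0.11. Among the 12 largest falls, the cation channel gene Trpm1 fell from 8.47, 8.52 and 8.55 to 3.28, 3.89 and 3.64, the septin gene Sept1 by 4.83 ± 0.13, the junction gene Jam2 by 4.49 ± 0.08, Nr0b1 (Dax1) by 4.46 ± 0.14 and Tcl1, a coactivator of AKT, by 4.41 ± 0.11. Mylpf and Myh13, genes of muscle myosin chains, also fell, by 4.34 ± 0.08 and 4.29 ± 0.10. The rule that chose these 24 genes required that ES and RA samples did not overlap.

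Heterozygous ΔG cells, given RA in the same way, responded much alike. There 3911 genes rose (17.7%) and 2588 fell (11.7%), and 5389 genes were called in the same direction in both genotypes, 83.8% of the homozygous and 82.9% of the heterozygous calls. 1 gene, AY036118, whose reads may be shared with repeated copies, was called in opposite directions. Over the 11984 genes with a mean of at least 3, the differences in the 2 genotypes correlated across genes at r = 0.971, where genes are not independent replicates. For Cyp26a1 the heterozygous difference was 5.88, for Hoxb2 it was 4.29, for Nanog -4.61 and for Gata6 4.06, against 5.54, 4.20, -4.48 and 4.04 in homozygous cells.

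The difference between both responses was tested as an interaction over the 12 ΔG samples. It was called for 524 genes (2.38%), 263 with a higher (1.19%) and 261 with a lower (1.18%) difference in homozygous cells. Of these 524 genes, 267 were called in the same direction in both genotypes, 94 in homozygous cells alone, 97 in heterozygous cells alone and 65 in neither, and for these the tested quantity is the size of the response. A stricter call, at 0.05 and 1.5-fold, left 137 higher and 131 lower.

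Structural and surface genes were among those that differed. Krt19 rose from 3.98 to 8.26 on average in homozygous cells and from 4.80 to 7.80 in heterozygous cells, so that its response was larger by 1.28 ± 0.15 (adjusted p = 1.38e-06). Cubn reached 9.01 to 9.05 in homozygous and 10.13 to 10.22 in heterozygous RA samples, a response smaller by 1.18 (interaction -1.18 ± 0.14, adjusted p = 2.96e-06). Col4a5, a type IV collagen gene on the X chromosome, stayed at 2.50, 2.65 and 2.52 in homozygous RA samples but reached 4.07, 4.14 and 4.40 in heterozygous ones (interaction -1.40 ± 0.21, adjusted p = 7.47e-05). Rises were also smaller in homozygous cells for Col1a2 (interaction -1.22) and Alcam (-1.15), and, outside this class of genes, for Sepp1 (-1.16).

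Other genes also differed in their response. Hist3h2ba, a histone gene, was at 6.18, 6.38 and 6.51 in ES and 7.93, 7.74 and 7.85 in RA in homozygous cells, and at 2.79 to 3.44 in every heterozygous sample (interaction 1.52 ± 0.21, adjusted p = 2.15e-05). The heterozygous difference was -0.03. This gene also differed between the genotypes before RA, with mean ES levels of 6.35 in homozygous and 3.08 in heterozygous cells. A difference at so low a level is understated on the rlog scale, so the size of this interaction is uncertain. Slc2a1 went from 9.91 to 10.43 on average in homozygous cells and from 10.43 to 10.14 in heterozygous cells (interaction 0.82, adjusted p = 4.04e-11). Spry1 and Xist gave interactions of 1.02 and 1.26, and A2m, which fell in both, gave 1.26. Mean levels of A2m in homozygous and heterozygous cells differed mainly before RA (6.21 and 7.69 in ES, 3.72 and 3.94 in RA). AY036118, annotated as a pseudogene on chromosome 17, gave the largest value, 2.41 ± 0.05 (adjusted p = 1.06e-24): it rose from 10.30, 10.33 and 10.31 to 11.95, 11.92 and 11.94 in homozygous cells and went from 10.95 to 11.06 in ES down to 10.14 to 10.27 in RA in heterozygous cells. Gm10800, on chromosome 2, gave -1.51. Reads of both may be shared with repeated copies, so their values are uncertain.

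**Figure D5:**
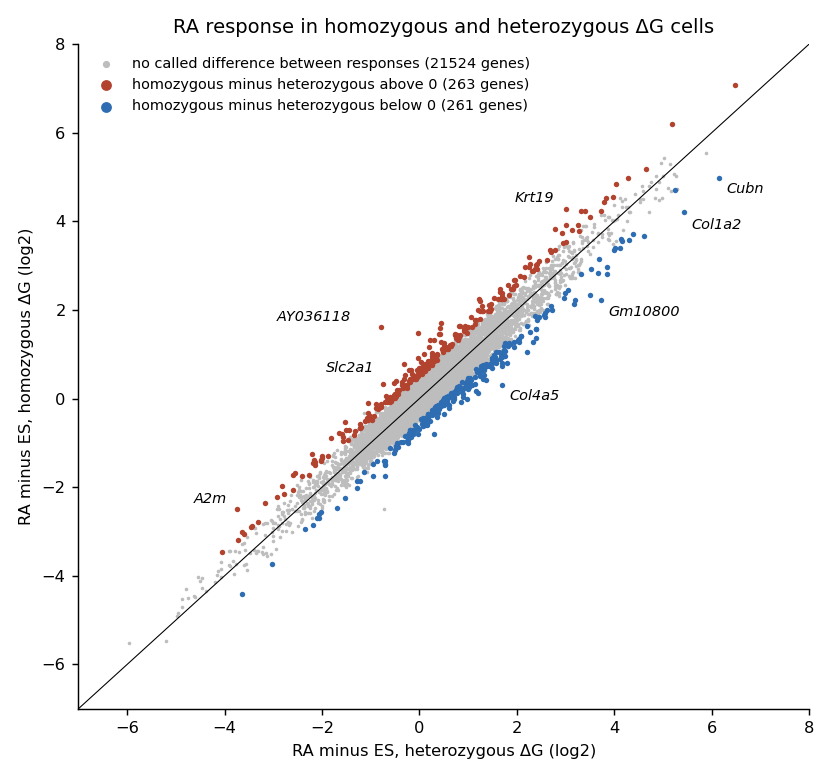
Each point is 1 of the 22048 genes tested, with the RA minus ES difference (log2) of heterozygous ΔG cells on the horizontal and of homozygous ΔG cells on the vertical axis, and the line marks equal differences. Most genes lie along the line, and the 263 (red) and 261 (blue) genes with a called interaction lie on either side of it, with AY036118 farthest above.

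Among the retinoid genes, Rarb (0.63) rose more in homozygous cells and Crabp1 (-0.71) and Crabp2 (-0.53) less. Of 39 Hox genes 2 had a called interaction, Hoxb9 (0.61) and Hoxb13 (0.66), both with a larger rise in homozygous cells. Over all genes tested, the interaction was called for 2.38%. When each of the 12 libraries was left out in turn, the call was lost in 7 fits for Crabp1, 9 for Crabp2, 8 for Hoxb9 and 8 for Hoxb13, and in none for Rarb. Of the 28 pluripotency genes 1 had a called interaction, Tcl1 (-0.77), against the same 2.38% of all genes tested. H19 rose by 7.08 in homozygous and 6.47 in heterozygous cells (interaction 0.61), and with quantile normalization this interaction was no longer called (0.064).

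Homozygous ΔPG cells lack the promoter of 5430416N02Rik as well as its gene body. They also carry a different cassette, so the ΔPG and ΔG lines differ in more than the promoter. The ΔPG values come from a table that the authors normalized separately, so they are set side by side without a test. In these cells 3634 genes rose (16.5%) and 2482 fell (11.3%), and 5274 genes were called in the same direction as in homozygous ΔG cells, 82.0% of the ΔG and 86.2% of the ΔPG calls, with none in the opposite direction. Differences in ΔPG were 4.57 for Cyp26a1, 3.77 for Hoxb2, -4.40 for Nanog, 3.40 for Gata6 and 5.00 for H19.

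Mid1, the X-linked gene that the study links to 5430416N02Rik, was at 7.66, 7.64 and 7.87 in homozygous ES samples and at 8.19, 8.29 and 8.14 in RA samples. The groups did not overlap, but the difference of 0.48 ± 0.08 (adjusted p = 3.10e-05) missed the size limit, and it passed with quantile normalization (0.54), without ES replicate 3 (0.56) and without RA replicate 3 (0.52). In heterozygous cells Mid1 was at 8.22 to 8.36 in ES and 8.33 to 8.44 in RA, a difference of 0.07, and the interaction of 0.41 ± 0.10 (adjusted p = 0.016) missed the size limit too. Of the 8 genes tested among 5430416N02Rik, its neighbours, Mid1 and genes tied to the Mid1 protein, 1 rose (Cdc25b, 0.71 ± 0.09) and none fell (median -0.014), and Sec31a, a neighbour, gave 0.17 ± 0.05.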

How the data were processed

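Total RNA was sequenced as stranded paired-end reads of 100 bp after removal of ribosomal RNA. The authors aligned the reads to NCBI37/mm9 with TopHat2 (2.1.0), removed duplicates with Picard, counted reads per gene and strand with HTSeq (0.6.0) and GENCODE models, and deposited DESeq2 (1.14.1) rlog values on the log2 scale, normalized separately for the 12 ΔG and the 12 ΔPG samples, with versions from the submitters' processing notes. The depth is unknown.

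R 4.3.3 with limma 3.58.1 (lmFit, eBayes, prior variance trended on the mean level) took the 3 ES and 3 RA samples, and 12 samples for the interaction. P-values were adjusted over all genes tested by the method of Benjamini and Hochberg, and p-values measure the spread between these samples. Calls needed an adjusted p under 0.1 and an absolute difference over 0.5. The fits were also run on simulated data, with independent normal noise and changes added to few genes. That setting differs from these data, in which 29.2% of genes were called, so it does not show how reliable the calls are. Lists and windows were handled with Python 3.11.15 and pandas 2.3.3. Gene positions are NCBIM37 and promoter sequences GRCm38.p6.

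The genes and lists were chosen with earlier results of these data known. Named are 5430416N02Rik, Mid1, the 12 largest rises and 12 largest falls with a mean of at least 3 and no overlap, list members, and the 6 largest interactions in each direction, except for a few genes not reported here. AC157822.1, Ppbp and Blvrb were named after their values were seen. Lists are described by counts and medians without a test. Of the list genes, 11 were 0 in every sample and 8 were not matched in the table. RIP-seq, 4C-seq and Capture-C data were not used here.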

Additional observations from a re-analysis of the deposited data

Results flagged for a closer look

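The RA response differed between homozygous and heterozygous ΔG cells, by the interaction test over 12 samples, for 263 genes with a higher and 261 with a lower difference in homozygous cells. Values below are the homozygous minus the heterozygous difference on the log2 scale, each with a limma adjusted p under 0.1. Genotype and clone cannot be told apart in any of them.

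Among the largest responses, Pmp22 (1.02), Pxdn (0.70), H19 (0.61) and Thsd4 (0.53) rose further in homozygous cells, and the fall of Tcl1 was deeper (-0.77). Retinoid genes went both ways, with Rarb at 0.63, Crabp1 at -0.71 and Crabp2 at -0.53. Hoxb13 was at 0.66 and Hoxb9 at 0.61.

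Among the genes with the largest positive values were AY036118 (2.41), Hist3h2ba (1.52), Krt19 (1.28), Xist (1.26) and A2m (1.26). Those with the largest negative values were Gm10800 (-1.51), Col4a5 (-1.40), Col1a2 (-1.22), Cubn (-1.18), Sepp1 (-1.16) and Alcam (-1.15). Reads of AY036118 and Gm10800 may be shared with repeated copies, so their values are uncertain. Of 25 endoderm genes the interaction was higher for 2, among them Lrp2 (0.51), and lower for 4, among them Cubn. Of 21 basement membrane genes it was higher for 2 and lower for 2, Col4a5 and Lama1 (-0.62). Over all genes tested, it was higher for 1.19% and lower for 1.18%.

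Falls were shallower in homozygous cells for Tcfap2c (0.96), Hk2 (0.66), Ccnd1 (0.62), Pfkp (0.60), Tubb3 (0.60), Cdx1 (0.56) and Pecam1 (0.55). Mean levels of Pfkp in homozygous and heterozygous cells differed mainly before RA (10.48 and 11.02 in ES, 7.03 and 6.97 in RA). Those of Tcfap2c differed mainly in RA (5.71 and 5.86 in ES, 4.46 and 3.65 in RA). Dlk1 (0.60) rose further, Spry1 (1.02) and Slc2a1 (0.82) were called as rises in homozygous cells alone, Fgf5 (-0.76), Ccnd2 (-0.72) and Id3 (-0.53) rose less, and Eomes, called in heterozygous cells alone, gave 0.60. The call was lost in at least 1 of the 12 fits that left out a library for Eomes (7 fits), Ccnd1 (6), Dlk1 (4), Cdx1, Pecam1, Id3 and Lrp2 (3 each) and Fgf5 and Thsd4 (2 each), besides Crabp2 (9), Hoxb9 and Hoxb13 (8 each) and Crabp1 (7).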

How the results depend on the processing

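Calling on the adjusted p alone, at 0.1, 6604 genes rose and 5168 fell in homozygous ΔG, 6759 and 5253 in heterozygous ΔG and 6435 and 4989 in homozygous ΔPG cells, and the interaction was called for 589 higher and 575 lower. A stricter call, at 0.05 and 1.5-fold, left 137 and 131 interactions. Under the other alternatives each count stayed within 1.5 times its value. Leaving out 1 library gave 3750 to 3855 rises and 2676 to 2708 falls in homozygous ΔG, 3895 to 3954 and 2609 to 2624 in heterozygous ΔG, 3588 to 3708 and 2473 to 2515 in homozygous ΔPG cells, and 213 to 251 higher and 192 to 221 lower interactions.

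For 181 named genes, 2617 of 2669 values kept direction and call, 10 lost and 22 gained the call, and 20 changed sign. The sign changed only for genes that were not called: 5430416N02Rik (-0.22 with quantile normalization, -0.0096 with median centring), Aldh1a2 (-0.38, -0.029), Cdx2 (-0.091 with quantile normalization), Trp53 (-0.15 with quantile normalization), Myod1 (-0.071 with median centring) and Sall4 (-0.079 with median centring, -0.074 with the GC trend removed). Without 1 library, 5430416N02Rik ran from -0.052 to 0.17, Aldh1a2 from -0.0097 to 0.16, Cyp26c1 from -0.099 to 0.087, Myod1 from -0.0096 to 0.033, Sall4 from -0.016 to 0.023, Thy1 from -0.13 to 0.12 and Trp53 from -0.060 to 0.28. Of 37 named interactions, 13 lost their call without 1 library or another, and with quantile normalization the one of H19 fell to 0.064. Thsd4, Lrp2, Hoxb9, Tcl1 and Eomes also lost it there.

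Of 320 alternative list medians, 234 moved by less than the spread between replicates, 70 by more and 16 changed sign. These were the primed (-0.79 with the filter on low values, -0.062 with quantile normalization, -0.87 with the GC trend removed), BMP and Nodal (-0.53, -0.0066, -0.68), Wnt (-1.09 with the filter, -1.20 with the GC trend removed), DNA methylation (-0.048 with median centring, -0.16 with the GC trend removed, -0.0017 to 0.059 without 1 library) and locus lists (0.0060 with the GC trend removed, -0.10 to 0.059 without 1 library). The filter drops list members with low values, and the GC fit includes it.

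Across the genes with a mean of at least 3, replicate numbers showed no pairing of the samples. Deviations of same-numbered ES and RA samples correlated at 0.0031, -0.0069 and -0.011. With a replicate block 3759 genes rose and 2675 fell. rlog values carry no counts, so differences of genes with few reads are understated and which calls depth limits cannot be told.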

Other observations

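One gene stood out by its spread. AC157822.1 was named after its values were seen. It had rlog values of 8.85, 11.2 and 11.2 in homozygous ES samples and 6.35, 8.73 and 8.73 in homozygous RA samples. It was lowest in replicate 1 of both groups, and its means were 8.95 in heterozygous ES and 8.22 in heterozygous RA samples. Within groups its SD was 1.36 in homozygous ES and 1.38 in homozygous RA samples, against medians of 0.0914 and 0.100 over the genes with a mean of at least 3. Its call (difference -2.48) was lost with quantile normalization.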
